A study of Mus musculus with 16 samples.

Results

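The complement and coagulation systems were followed through 42 genes in isolated glomeruli and renal cortex of diabetic and control mice. The genes were taken as a list of symbols by their known roles, not by a threshold on a measured value, but the list was drawn up when earlier results of these data were known. All 42 were present among the 24722 genes of the glomerular table and the 34264 genes of the cortex table. RNA sequencing had been done on mice of WT genotype, 24 weeks old, in 4 groups of 4 libraries: glomeruli of control mice, glomeruli of HFD/STZ mice, cortex of control mice and cortex of HFD/STZ mice. HFD/STZ is a common model of type 2 diabetes that joins a high-fat diet with streptozotocin, a toxin of insulin-producing cells, and the effects of the diet, of the toxin and of the raised blood sugar cannot be told apart in these groups. All libraries carried the same batch label, batch 1. The labels give no strain or sex and do not say whether the libraries of a group came from separate or pooled animals, so every p-value is set against the spread among libraries, whose source (animal or technical) is unknown.

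Complement is a cascade of proteases that tags surfaces with fragments of C3 and ends in a membrane pore. It starts from C1q with C1r and C1s (the classical pathway), from collectins with MASP proteases (the lectin pathway), or from C3 itself with factor B and factor D (the alternative pathway), and regulators on cells and in plasma hold it in check. Coagulation starts when tissue factor meets plasma clotting factors and ends when thrombin turns fibrinogen into fibrin, which plasmin, made by the plasminogen activators Plat and Plau, removes. The liver makes most of these proteins for the blood, but kidney cells, resident macrophages and vessel walls transcribe many of the genes as well, and transcripts rather than plasma proteins were measured here.

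Total counts were 36339294 to 41876031 per glomerular library and 57473100 to 72352656 per cortex library. In glomeruli 2 pairs of libraries were far more alike than the rest: control 3 and 4 had a chi-square per gene of 2.76 where other control pairs had at least 45.7, and diabetic 1 and 4 had 6.69 where other diabetic pairs had at least 66.2. Each pair still differed by more than sampling noise, but was summed and counted as 1 sample, which left 3 against 3 glomerular samples. Values for glomeruli are listed below as control 1, control 2 and control 3+4, then diabetic 1+4, diabetic 2 and diabetic 3. Podocyte and proximal tubule markers went with the labels. The summed level of 14 podocyte genes was 7237 to 8758 CPM (counts per 1000000 of the scaled library size) in control glomeruli and 731 to 786 in control cortex. That of 15 proximal tubule genes was 108 to 127 and 25941 to 41033. Diabetic glomerular samples 1+4 and 3 held more tubule RNA, with proximal tubule sums of 1402 and 690.0 CPM, than diabetic sample 2 with 138. The sum in diabetic 2 was above every control through Lrp2, a proximal tubule receptor, at 23.5 CPM there and 5.15 to 6.90 in controls. Other genes of the list were mixed in diabetic 2. Aqp1 (7.15 against 4.37 to 5.35 CPM in controls), Slc6a19 and Slc22a8 were above the controls. Slc34a1 (18.4 against 16.0 to 18.7 CPM), Kap and Cubn were within their range, and Slc5a12 (0.799 against 0.941 to 1.56 CPM) was below it. Smooth muscle genes fell in diabetic glomeruli, 9 of 9, with sums of 18226 to 20725 CPM in controls and 3631 to 6471 in diabetic samples. In control cortex the smooth muscle sum was 231 to 285 CPM. Fibroblast genes summed to 8088 to 8459 CPM in control glomeruli and 206 to 394 in control cortex. Control glomeruli were thus higher than control cortex in smooth muscle and fibroblast transcripts as well as in podocyte ones, and the source of these transcripts was not tested. In cortex, control library 4 stood apart from the other 3 controls (chi-square per gene 77.7 to 96.2, against 18.4 to 28.4 among the rest). In such bulk samples, fewer cells of a type and less RNA per cell cannot be told apart.

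Diabetic glomeruli had less mRNA for C3, for the C1 proteases C1s1 and C1ra and for the C1 inhibitor Serping1, and more for tissue factor (F3) and urokinase (Plau). In cortex the direction for C3 was the opposite, and the C1q chains, C4b, the 3 fibrinogen chains and F3 rose with it. In glomeruli 31 of the 42 genes had enough counts to test, of which 7 rose, 11 fell and 13 did not pass the test (edgeR's quasi-likelihood test, Benjamini-Hochberg adjusted p under 0.05 over all genes tested). Of the 7 that rose, Cfi and F13a1 passed the count filter only through their diabetic samples. Over all 15238 genes tested there, 19.4% rose and 18.2% fell (2950 and 2767 genes; 4390 and 1661 when scaled by library totals in place of TMM, with 9 members then higher and 8 lower). In cortex 41 were testable, of which 16 rose, 2 fell and 23 did not pass, against 10.8% rising and 9.29% falling among 19228 genes. The median log2 fold change of the complement and coagulation genes was 0.02 in glomeruli and 0.45 in cortex, beside 0.01 and 0.00 over all genes tested. Groups did not overlap for 20 genes in glomeruli, where 54.2% of all tested genes did not, and for 17 in cortex, where 24.9% did not. Of the 42 genes, 29 passed in at least 1 tissue and 7 in both, 2 of these in the same direction (C1qb and F3) and 5 in opposite directions (C3, Masp1, F2r, Serpine2 and Pros1). Such counts across the tissues were not made over all genes, so whether these are unusual is not known.

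**Figure D1:**
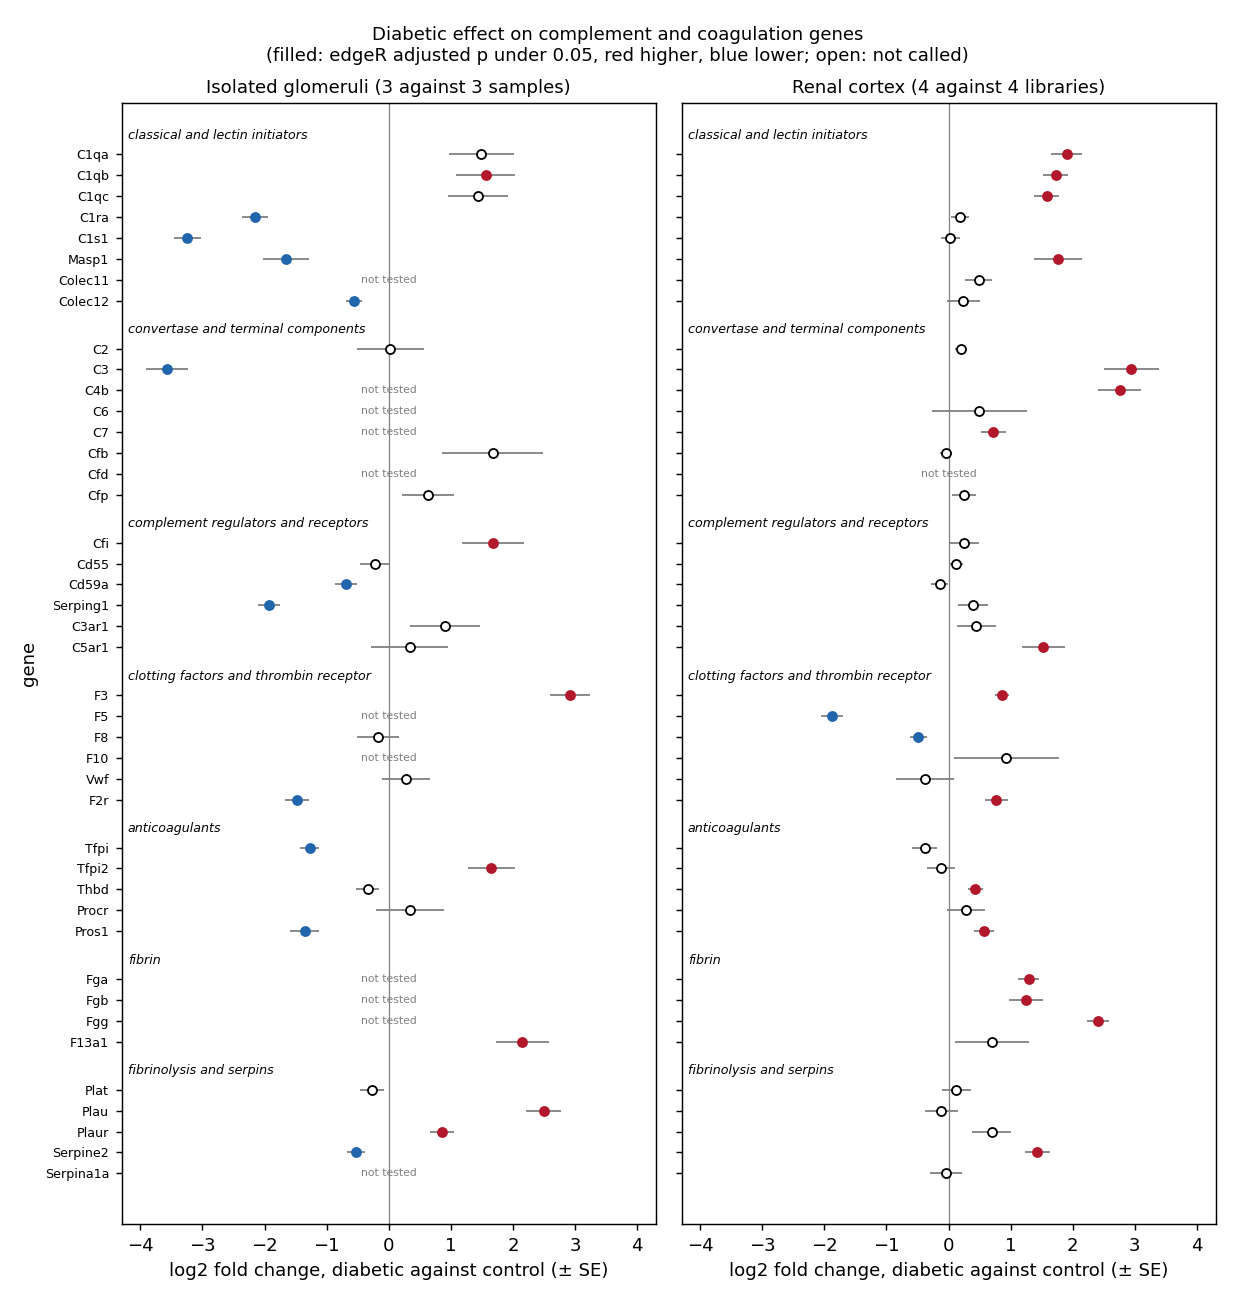
Log2 fold change of diabetic against control samples for each of the 42 genes, grouped by role, in glomeruli (left, 3 against 3 samples) and cortex (right, 4 against 4 libraries). Bars are standard errors, filled points passed the test (red higher, blue lower), and C3 is the lowest point on the left and the highest on the right.

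C1q, the recognition molecule of the classical pathway, is built from 3 chains encoded by C1qa, C1qb and C1qc, and tissue macrophages are its main source. All 3 rose in cortex, C1qa by a log2 fold change of 1.90 ± 0.25 (SE, adjusted p = 0.00153), C1qb by 1.72 ± 0.21 and C1qc by 1.58 ± 0.20. C1qa was at 5.07, 5.72, 7.01 and 11.3 CPM in the control cortex libraries and at 20.9, 30.7, 30.0 and 27.4 in the diabetic ones. The lowest diabetic library thus lay above the highest control for C1qa, and the same held for C1qb and C1qc. Macrophage and myeloid marker genes rose in the same libraries, 12 of 14, with summed levels of 265 to 444 CPM in controls and 636 to 972 in diabetic cortex; their part in the C1q result was not tested.

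In glomeruli the C1q chains were highest in 1 sample. C1qb was at 16.2, 14.8 and 11.0 CPM in the controls and at 26.0, 22.6 and 75.3 in the diabetic samples, with diabetic 3 the highest and no overlap between groups. The log2 fold change of C1qb was 1.56 ± 0.48 (adjusted p = 0.0413), while C1qa (1.49 ± 0.52, adjusted p = 0.0639) and C1qc (1.44 ± 0.49, adjusted p = 0.0562) did not pass. The C1qb call was lost without any of the control samples (adjusted p = 0.0888 to 0.126), without a filter on low counts (adjusted p = 0.117) and without diabetic libraries 1, 3 and 4 (adjusted p = 0.111). Diabetic 3 also had the highest macrophage and myeloid sum of the diabetic samples, 520.2 CPM against 287 and 201, within the control range of 292 to 735. In the controls most of that sum was Lyz2, at 307, 583 and 217 CPM, and at 72.9, 67.7 and 187 in the diabetic samples. Of the 14 macrophage and myeloid markers 5 rose and 1, Lyz2, fell in glomeruli. The part of these markers in the C1q values was not tested.

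C1ra and C1s1 encode the proteases that C1q activates, and both fell steeply in glomeruli. C1s1 was at 483, 334 and 525.5 CPM in control glomeruli and at 53.3, 50.6 and 37.9 in diabetic glomeruli, 9.46-fold lower (log2 −3.24 ± 0.22, adjusted p = 0.000504). C1ra was at 56.975, 34.9 and 52.0 CPM in controls and at 12.4, 10.7 and 9.15 in diabetic samples (log2 −2.15 ± 0.21, adjusted p = 0.000988). Each diabetic sample was below each control sample for both genes. In cortex neither gene passed: C1s1 was 24.9 ± 4.96 CPM (SD, n = 4) in controls and 25.4 ± 3.97 in diabetic libraries (log2 0.03 ± 0.16, adjusted p = 0.925), and C1ra had a log2 fold change of 0.19 ± 0.14 (adjusted p = 0.414). Both genes have close copies in the mouse genome, C1s2 and C1rb, between which reads may be split; the copies held few reads, 55 for C1s2 and 23 for C1rb over all control glomerular libraries.

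Of the lectin pathway genes, Masp1, whose protein is a protease of that pathway, moved in both tissues in opposite directions. It was at 7.60, 10.0 and 8.86 CPM in control glomeruli and at 1.81, 2.12 and 4.53 in diabetic glomeruli (log2 −1.65 ± 0.37, adjusted p = 0.0150; 0.0510 without diabetic 2). In cortex it was at 1.22, 1.42, 1.26 and 3.66 CPM in controls and at 4.12, 8.17, 7.45 and 5.96 in diabetic libraries (log2 1.76 ± 0.38, adjusted p = 0.0120), with control 4 close to the lowest diabetic library. Masp1 shares its locus with Rtp4 on the other strand, and whether the counting used strand is not given in the sources used here. Rtp4 rose in cortex as well (log2 1.05 ± 0.30, adjusted p = 0.0356) and had a log2 fold change of −0.92 ± 0.58 in glomeruli (adjusted p = 0.252), so for Masp1 reads of the 2 genes cannot be told apart. Colec12, a scavenger receptor of the collectin family, was 55.8 ± 6.77 CPM (SD, n = 3) in control and 37.8 ± 4.58 in diabetic glomeruli (log2 −0.56 ± 0.13, adjusted p = 0.0152). Its call was lost with library totals in place of TMM (adjusted p = 0.0805), with FPKM (0.0858), without diabetic 1+4 (0.0576), without diabetic 3 (0.0504) and without diabetic libraries 1, 3 and 4 (0.217). In cortex Colec12 (0.24 ± 0.26) and the soluble collectin Colec11 (0.48 ± 0.22) did not pass, and Colec11 had 1 to 8 reads per glomerular library.

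C3 is the protein on which all 3 complement pathways converge, and its gene showed the widest split between the tissues. In control glomeruli it was at 211, 114 and 193 CPM and in diabetic glomeruli at 19.4, 9.84 and 14.0, 11.9-fold lower (log2 −3.58 ± 0.34, adjusted p = 0.000878). In control cortex it was at 9.77, 15.1, 26.3 and 17.4 CPM and in diabetic cortex at 64.3, 191, 175 and 97.0, 7.69-fold higher (log2 2.94 ± 0.44, adjusted p = 0.00427). The groups did not overlap in either tissue, and both calls held in all 13 alternative analyses of each tissue. The promoter is shown because C3 moved in opposite directions in the 2 tissues. It lies on the minus strand of chromosome 17 (gene at 57203970 to 57228136, GRCm38, GENCODE M21), and the 250 bases before the RefSeq start (GRCm38.p6, chr17:57228137-57228386, minus strand, 5′ to 3′) are printed in lower case, with matches in capitals to 5 short motifs: STAT TTCNNNGAA, C/EBP TTGCNNAA, HNF1 GTTAAT, NF-kB GGGNNTTCC and AP-1 TGANTCA. Interferon response letters (GAAANNGAA) and TEAD letters (GGAATG) were searched too but are not in capitals, and both strands were read.
C3: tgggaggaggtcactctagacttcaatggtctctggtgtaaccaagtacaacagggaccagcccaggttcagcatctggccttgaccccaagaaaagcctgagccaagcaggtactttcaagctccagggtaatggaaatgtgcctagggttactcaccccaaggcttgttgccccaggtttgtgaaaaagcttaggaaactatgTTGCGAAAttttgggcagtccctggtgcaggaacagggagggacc
The window holds 1 match, to the C/EBP letters, which begins at position −45 counted from the start. Of 32851 mouse promoter windows of the same kind, 10.8% hold those letters, and a match is a description of the sequence, which says nothing of binding.

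Fibroblast and smooth muscle markers fell in the same glomerular samples as C3, C1s1, C1ra and Serping1. The fibroblast list had 4 of 9 tested genes lower and none higher, with sums over 11 genes of 8088 to 8459 CPM in controls and 2090 to 5005 in diabetic samples. The mesangial list had 3 of 10 lower (1199 to 1364 against 704 to 851 CPM). Its lower genes include the member Serpine2, so the mesangial list is not separate from the genes followed here. The podocyte list had 5 of 14 lower and none higher (7237 to 8758 against 3867 to 6185 CPM). The part of these cell types in the complement result was not tested.

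C4b, whose product C1s cleaves to build the C3 convertase, rose in cortex from 5.26, 7.27, 11.7 and 4.93 CPM to 35.4, 72.8, 47.4 and 42.3 (6.77-fold, log2 2.76 ± 0.34, adjusted p = 0.00195). The near-identical copy C4a held 332 reads over the control and 601 over the diabetic cortex libraries, and reads may be split between the copies. C7, a part of the membrane pore, was at 3.95 ± 0.973 CPM (SD, n = 4) and 6.53 ± 0.974 (log2 0.72 ± 0.20, adjusted p = 0.0294), a call lost without control 1 or 3 or without diabetic 1, 2 or 3 (adjusted p = 0.0549 to 0.0865). C2 and the alternative pathway genes Cfb (factor B) and Cfp (properdin, which stabilises the alternative convertase) did not pass in either tissue. Factor B was among the most abundant of the 42 genes in cortex, at 116 ± 10.1 FPKM in controls and 116 ± 11.0 in diabetic libraries (SD, n = 4). In glomeruli Cfb was at 2.87, 9.05 and 2.54 CPM in controls and at 29.4, 3.54 and 12.8 in diabetic samples, high in the 2 samples with the most tubule RNA, and did not pass (log2 1.67 ± 0.82, adjusted p = 0.152). C6, another pore component, was at or under 0.737 CPM in every cortex library and was not called (log2 0.50 ± 0.76).

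Read counts of several members were too low to test in glomeruli, and some of these followed the tubule RNA. C4b had 0, 9, 6 and 9 reads in control libraries 1 to 4 and 79, 1, 45 and 85 in diabetic libraries 1 to 4. The low library is diabetic 2, the one in which the proximal tubule sum was 138 CPM, and the part of tubule RNA was not tested. C6, C7, Cfd, F10, Colec11 and Serpina1a had at most 22 reads in any glomerular library. Cfd, the alternative pathway protease factor D and a product of fat cells, was not testable in either tissue: control cortex library 3 had 2896 counts, diabetic 2 had 150, diabetic 4 had 4 and the other 5 had 0. The adipocyte marker Adipoq was at 18.1 CPM in that control library, 0.869 in diabetic 2 and 0 in the other 6.

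Among the regulators, Serping1, the inhibitor of C1r, C1s and MASPs, fell in glomeruli from 92.1, 119 and 88.8 CPM to 30.8, 21.6 and 26.2 (3.82-fold, log2 −1.93 ± 0.17, adjusted p = 0.000796). In cortex it was 50.5 ± 17.9 CPM (SD, n = 4) in controls and 66.5 ± 10.1 in diabetic libraries and did not pass (log2 0.40 ± 0.25, adjusted p = 0.315). Thus an inhibitor and the proteases it inhibits were lower in the same glomerular samples. Cd59a, which blocks pore assembly on the cell surface, was 99.8 ± 10.2 CPM (SD, n = 3) and 62.1 ± 13.7 in glomeruli (log2 −0.68 ± 0.18, adjusted p = 0.0235). That call was lost with library totals (adjusted p = 0.0756), with FPKM (0.0734), without control 1 (0.0749), without control 3+4 (0.0609) and without diabetic libraries 1, 3 and 4 (0.0834). Cd55, which speeds the decay of convertases, did not pass in glomeruli (−0.22 ± 0.24) or cortex (0.12 ± 0.12). Cfi, the protease that cleaves C3b, had 14, 15, 4 and 6 reads in control glomerular libraries and 43, 27, 45 and 45 in diabetic ones (log2 1.68 ± 0.51, adjusted p = 0.0390). Like F13a1, Cfi passed the count filter through its diabetic samples and its call rests on few reads. That call was lost without any 1 sample but diabetic 2 (adjusted p = 0.0566 to 0.109).

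The receptors for the small fragments of C3 and C5 were low. C5ar1, found on neutrophils and macrophages, rose in cortex from 0.720, 0.370, 1.19 and 0.848 CPM to 1.49, 2.44, 2.77 and 2.36 (log2 1.53 ± 0.34, adjusted p = 0.0126). C3ar1 did not pass in cortex (0.45 ± 0.32) or in glomeruli (0.91 ± 0.56). In glomeruli C5ar1 was at 3.55, 5.03 and 3.12 CPM in controls and at 2.77, 1.94 and 10.1 in diabetic samples, so the groups overlapped, with diabetic 3 again the highest.

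**Figure D2:**
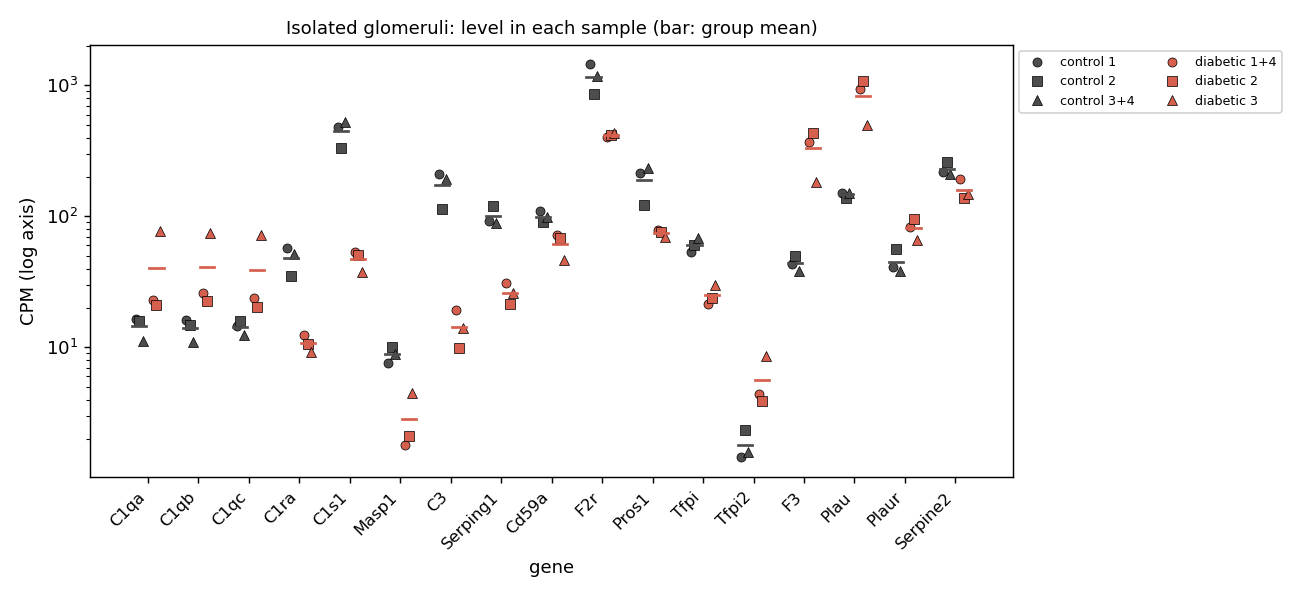
Level of 17 complement and coagulation genes in each glomerular sample, in CPM on a log axis; grey points are control and red points diabetic samples, and bars are group means. The diabetic C3 values lie between 9.84 and 19.4 CPM, all below the lowest control at 114, and the diabetic F3 values between 185 and 436, all above the highest control at 49.5.

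F3 encodes tissue factor, the receptor that starts clotting, and was the only one of the clotting factors tested that rose in both tissues. In glomeruli it was at 43.2, 49.5 and 38.7 CPM in controls and at 373, 436 and 185 in diabetic samples, 7.56-fold higher (log2 2.92 ± 0.32, adjusted p = 0.00137). In cortex it was at 15.9, 16.7, 14.8 and 19.3 CPM in controls and at 26.4, 26.4, 34.8 and 33.5 in diabetic libraries, 1.81-fold higher (log2 0.86 ± 0.12, adjusted p = 0.00139). The groups did not overlap in either tissue. The highest glomerular F3 value was in diabetic 2, and with that sample as the lone diabetic one the call held (adjusted p = 0.0111, the lone sample being assumed to vary like the controls). The part of tubule RNA in the F3 values was not tested. F3 lies on the plus strand of chromosome 3 (121723537 to 121735048). Its promoter (chr3:121723287-121723536, RefSeq GRCm38.p6) is shown in the same way because F3 had the highest log2 fold change of the tested members in glomeruli.
F3: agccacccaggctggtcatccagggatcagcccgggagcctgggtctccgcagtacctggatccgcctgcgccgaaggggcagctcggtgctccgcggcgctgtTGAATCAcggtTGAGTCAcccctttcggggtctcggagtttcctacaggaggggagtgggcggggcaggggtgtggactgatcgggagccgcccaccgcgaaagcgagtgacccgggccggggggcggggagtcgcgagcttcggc
It holds 2 matches to the AP-1 letters, beginning at positions −146 and −135, and AP-1 letters occur in 7.81% of all windows.

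F2r, the thrombin receptor PAR1, was the most abundant of the 42 genes per transcript length in control glomeruli, at 325 ± 78.1 FPKM (SD, n = 3). It was at 1451, 857 and 1175 CPM in control glomeruli and at 404, 418 and 434 in diabetic glomeruli (log2 −1.47 ± 0.19, adjusted p = 0.00217). In cortex it rose from 55.5, 40.5, 49.3 and 71.9 CPM to 77.6, 88.2, 118 and 86.8 (log2 0.77 ± 0.18, adjusted p = 0.0202; 0.0542 without control 3). The glomerular fall kept its size but not its call with diabetic 2 as the lone diabetic sample (log2 −1.45, adjusted p = 0.0529). F2r is transcribed in smooth muscle, whose markers also fell in these samples, and their part in the result was not tested.

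F5, the cofactor of the protease that makes thrombin, fell in cortex from 10.5, 9.55, 9.73 and 7.15 CPM to 1.90, 2.71, 2.55 and 2.90, 3.67-fold lower (log2 −1.88 ± 0.18, adjusted p = 0.000275). No alternative ended that call. In glomeruli F5 had 4 to 9 reads in control libraries and 21, 4, 11 and 27 in diabetic libraries 1 to 4 and was not tested alone. F8, the cofactor of the protease that activates factor X, was 9.64 ± 1.67 CPM (SD, n = 4) in control and 6.89 ± 0.579 in diabetic cortex (log2 −0.48 ± 0.14, adjusted p = 0.0331). Its call was lost in 9 of 13 alternatives, among them without control 1, 3 or 4 and without diabetic 2, 3 or 4 (adjusted p up to 0.153). F8 shares its locus with Fundc2 on the other strand, which held 11673 reads over the control and 12079 over the diabetic cortex libraries. Since the use of strand is not given, reads of F8 and Fundc2 may not have been told apart. Vwf, the carrier of factor VIII and an endothelial product, did not pass in glomeruli (0.28 ± 0.39) or cortex (−0.38 ± 0.47), and F10 did not pass in cortex (0.93 ± 0.85).

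Of the anticoagulants in glomeruli, Tfpi and Pros1 fell and Tfpi2 rose. Tfpi, the inhibitor of tissue factor and factor Xa, was at 53.1, 61.0 and 68.5 CPM in controls and at 21.6, 23.9 and 30.1 in diabetic samples (2.42-fold lower, log2 −1.27 ± 0.15, adjusted p = 0.00176). It fell in the samples in which F3 rose. Pros1, protein S, a cofactor of activated protein C, was at 214, 122 and 234 CPM in control glomeruli and at 78.6, 75.6 and 69.2 in diabetic glomeruli (log2 −1.35 ± 0.24, adjusted p = 0.00595; 0.112 with diabetic 2 as the lone diabetic sample). Tfpi2, a related inhibitor of plasmin and other proteases, was at 1.45, 2.33 and 1.60 CPM in controls and at 4.44, 3.90 and 8.58 in diabetic samples (log2 1.65 ± 0.38, adjusted p = 0.0153). The Tfpi2 call was lost without control 1 (adjusted p = 0.0582), without control 3+4 (0.0601) and without diabetic libraries 1, 3 and 4 (0.120).

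In cortex, Pros1 had 20.3 ± 3.75 CPM (SD, n = 4) in controls and 30.1 ± 6.09 in diabetic libraries (log2 0.57 ± 0.16, adjusted p = 0.0310). Thbd, thrombomodulin, which turns thrombin toward protein C, had 19.6 ± 3.47 and 26.5 ± 2.75 CPM (log2 0.43 ± 0.12, adjusted p = 0.0314). Control 4 overlapped the diabetic libraries for both. Both calls were lost without control 1, 2 or 3 and without diabetic 2, 3 or 4, with adjusted p up to 0.0815 for Pros1 and 0.0937 for Thbd. Tfpi (−0.38 ± 0.20), Tfpi2 (−0.12 ± 0.23) and the protein C receptor Procr (0.28 ± 0.31) did not pass in cortex. In glomeruli Thbd (−0.34 ± 0.18) and Procr (0.34 ± 0.55) did not pass.

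Fibrinogen is built from 3 chains, encoded by Fga, Fgb and Fgg side by side on chromosome 3, and all 3 rose in diabetic cortex. Fgg was at 7.54, 7.88, 6.13 and 7.80 CPM in controls and at 30.6, 44.9, 49.1 and 30.5 in diabetic libraries, 5.29-fold higher (log2 2.40 ± 0.18, adjusted p = 9.5e-05). Fga was at 18.6, 25.3, 16.5 and 25.1 CPM in controls and at 56.6, 57.7, 55.9 and 38.8 in diabetic libraries (2.45-fold, log2 1.29 ± 0.17, adjusted p = 0.00162). Fgb was much lower, at 0.908, 1.20, 1.11 and 1.62 CPM and 1.71, 3.17, 3.74 and 2.91 (2.37-fold, log2 1.25 ± 0.28, adjusted p = 0.0121). The groups did not overlap for any of the chains, although the lowest diabetic Fgb library was close to the highest control. Per transcript length the chains were unequal: 16.3 ± 2.99 FPKM for Fga, 0.714 ± 0.230 for Fgb and 17.5 ± 4.91 for Fgg in diabetic cortex (SD, n = 4).

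Hepatocyte transcripts were checked because liver is the usual source of fibrinogen. In cortex 1 of 5 tested hepatocyte markers rose, Ttr (log2 1.39 ± 0.34, adjusted p = 0.0262), which made up most of the list's sum of 44.7 to 93.1 CPM in controls and 118 to 278 in diabetic libraries. Alb was at 4.42 to 7.99 CPM in controls and 8.00 to 8.70 in diabetic libraries (adjusted p = 0.352), and Ahsg had reads in 1 of 8 libraries. In control glomeruli Fga had 0, 1, 1 and 0 reads and Fgg none, while diabetic libraries 1 to 4 had 88, 2, 60 and 114 reads of Fga and 48, 0, 20 and 39 of Fgg. These reads were again few in diabetic 2. Fgb stayed between 2 and 17 reads in every glomerular library. F13a1, the subunit of factor XIII that links fibrin strands, had 2 to 5 reads in control and 14 to 25 in diabetic glomerular libraries (log2 2.15 ± 0.42, adjusted p = 0.00879; 0.163 without diabetic libraries 1, 3 and 4). F13a1 passed the count filter through its diabetic samples, and its call rests on those few reads. In cortex it did not pass (0.70 ± 0.60).

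The promoters of the fibrinogen genes are shown because their transcripts rose together in cortex. They cover chr3:83025903-83026152 on the plus strand for Fga, chr3:83049864-83050113 on the minus strand for Fgb and chr3:83007474-83007723 on the plus strand for Fgg (RefSeq, GRCm38.p6), with the same motifs in capitals.
Fga: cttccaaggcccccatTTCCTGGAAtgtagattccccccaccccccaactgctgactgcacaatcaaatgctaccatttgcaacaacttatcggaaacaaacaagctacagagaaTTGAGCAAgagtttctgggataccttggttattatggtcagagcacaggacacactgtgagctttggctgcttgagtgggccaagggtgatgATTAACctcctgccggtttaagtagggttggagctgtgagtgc
Fgb: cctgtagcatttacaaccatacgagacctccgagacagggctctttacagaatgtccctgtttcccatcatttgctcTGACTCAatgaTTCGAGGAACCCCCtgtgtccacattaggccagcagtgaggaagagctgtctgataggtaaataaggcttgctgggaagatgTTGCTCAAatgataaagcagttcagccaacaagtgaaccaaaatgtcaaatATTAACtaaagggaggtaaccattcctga
Fgg: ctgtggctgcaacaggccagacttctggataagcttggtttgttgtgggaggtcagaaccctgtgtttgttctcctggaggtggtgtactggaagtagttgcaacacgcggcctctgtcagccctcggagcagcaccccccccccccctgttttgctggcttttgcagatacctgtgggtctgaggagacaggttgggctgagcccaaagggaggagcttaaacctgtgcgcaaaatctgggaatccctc
Fga and Fgb each hold a match to the STAT, C/EBP and HNF1 letters, beginning at −234, −135 and −43 in Fga and at −162, −80 and −29 in Fgb. The Fgb window also holds AP-1 letters at −173 and NF-kB letters at −157, the latter overlapping the STAT match, so 1 run of capitals covers both. TEAD letters begin at −229 in Fga, within the STAT match, and at −9 in Fgb. The Fgg window holds none of the letters searched, and Fgg had the highest log2 fold change of the 3. Over all 32851 windows, which run on for 50 bases past the start, 8.30% hold the STAT, 10.8% the C/EBP, 7.10% the HNF1, 5.82% the NF-kB, 8.56% the interferon response and 14.7% the TEAD letters. Of the 42 genes, 30 had a window, and 6, 8, 8, 2, 8, 4 and 6 of these held the STAT, C/EBP, HNF1, NF-kB, AP-1, interferon response and TEAD letters. These 30 genes had 35 windows, and a gene was counted if any of its windows matched. The counts of genes are thus not in the same unit as the shares of windows.

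**Figure D3:**
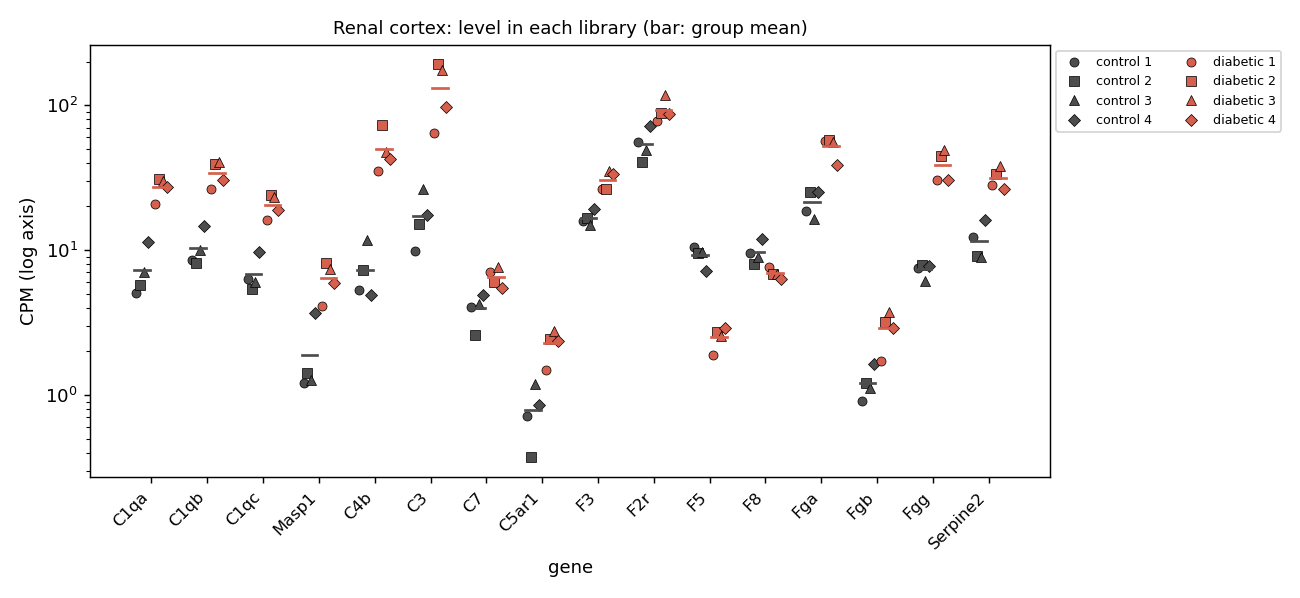
Level of 16 complement and coagulation genes in each cortex library, in CPM on a log axis; grey points are control and red points diabetic libraries, and bars are group means. Fgg lies at 6.13 to 7.88 CPM in controls and 30.5 to 49.1 in diabetic libraries, and F5 is lower in every diabetic library.

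Plau, urokinase, which turns plasminogen into plasmin, rose in glomeruli beside F3. It was at 152, 139 and 152 CPM in controls and at 933, 1074 and 499.8 in diabetic samples, 5.65-fold higher (log2 2.50 ± 0.28, adjusted p = 0.00142), with diabetic 2 the highest and no overlap. The rise was not ended by any of the 13 alternatives. Of 8 parietal epithelial markers 3 rose and 1 fell in glomeruli. Their sums were 649 to 896 CPM in controls and 1885, 2234 and 1521 in the diabetic samples. Most of that change was in the keratin gene Krt8, at 2.26, 19.1 and 2.48 CPM in controls and 1056, 1264 and 600.45 in diabetic samples. The part of these cells in the F3 and Plau results was not tested. In cortex Plau was high in both groups, at 307 ± 126 CPM (SD, n = 4) in controls and 283 ± 43.0 in diabetic libraries, and did not pass (log2 −0.12 ± 0.26, adjusted p = 0.802). Its cell surface receptor Plaur was at 40.8, 56.0 and 38.6 CPM in control and at 83.4, 95.6 and 66.1 in diabetic glomeruli (log2 0.86 ± 0.19, adjusted p = 0.0140; 0.0577 without control 1 and 0.0527 without control 3+4). Plaur did not pass in cortex (0.70 ± 0.32, adjusted p = 0.153). Plat, tissue plasminogen activator, was the second most abundant of the 42 genes per length in control glomeruli at 269 ± 54.5 FPKM (SD, n = 3), and did not pass in glomeruli (−0.27 ± 0.19) or cortex (0.13 ± 0.24).

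Serpine2, protease nexin 1, which inhibits thrombin and the plasminogen activators, rose in cortex from 12.2, 9.03, 9.02 and 16.2 CPM to 27.9, 33.4, 37.8 and 26.4 (2.69-fold, log2 1.43 ± 0.20, adjusted p = 0.00195). In glomeruli it was at 219.5, 262 and 209 CPM in controls and at 192, 139 and 149 in diabetic samples (log2 −0.53 ± 0.15, adjusted p = 0.0334). The glomerular call was lost in 8 of 13 alternatives, among them without each control sample and without diabetic 2 or 3 (adjusted p up to 0.132). Serpina1a, an alpha-1-antitrypsin gene with near-identical copies among which reads may be split, did not pass in cortex (46.1 ± 17.5 and 44.8 ± 7.45 CPM, SD, n = 4, log2 −0.04 ± 0.25).

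Whether a diabetic effect differed between the tissues was tested in 1 model over all 4 groups, on 16266 genes that both tables held and that passed the count filter. Of the 41 genes tested, 6 had a higher effect in glomeruli than in cortex and 10 a lower one, while among all genes 18.8% were higher and 16.3% lower. The difference for C3 was −6.51 ± 0.64 on the log2 scale (adjusted p = 1.3e-05). Lower effects in glomeruli were found for Masp1 (−3.41 ± 0.60), C1s1 (−3.27 ± 0.29), C1ra (−2.34 ± 0.28), Serping1 (−2.32 ± 0.34), F2r (−2.24 ± 0.29), Serpine2 (−1.95 ± 0.29) and Pros1 (−1.93 ± 0.31). These, with C3, F3 and Plau, passed in all 19 alternatives of this test. Thbd (−0.77 ± 0.23) was lost with library totals (adjusted p = 0.0862) and without control glomeruli 1 (0.0585). Tfpi (−0.89 ± 0.28, adjusted p = 0.0269) was lost in 8 of 19 alternatives, among them without control glomeruli 3+4, diabetic glomeruli 1+4 or 2, control cortex 3 or diabetic cortex 3 or 4 (adjusted p up to 0.0881).

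Higher effects in glomeruli were found for Plau (2.62 ± 0.41, adjusted p = 0.000426), F3 (2.06 ± 0.32, adjusted p = 0.000363), Tfpi2 (1.78 ± 0.44), F5 (3.01 ± 0.60), Cfi (1.48 ± 0.53) and Fga (5.22 ± 1.56). F5 and Fga had too few glomerular reads to test in glomeruli alone and passed the count filter of this model through their cortex libraries. The Fga value rests on 2 control glomerular reads and the F5 value on 4 to 9 reads per control glomerular library, so neither is a measure of size. Without diabetic glomerular libraries 1, 3 and 4 the differences for Fga (adjusted p = 0.861), F5 (0.369), Cfi (0.371) and Tfpi2 (0.0701) were lost. Fga was also lost without control glomeruli 1 (0.0573) or 3+4 (0.0802) and without diabetic glomeruli 1+4 (0.0551), and Cfi without control glomeruli 3+4, diabetic glomeruli 1+4 or 3, or any cortex library except control 4 and diabetic 2 (0.0554 to 0.124). For the C1q chains the difference did not pass, at −0.41 ± 0.59 for C1qa, −0.15 ± 0.52 for C1qb and −0.13 ± 0.53 for C1qc, which does not show that the effects were equal.

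**Figure D4:**
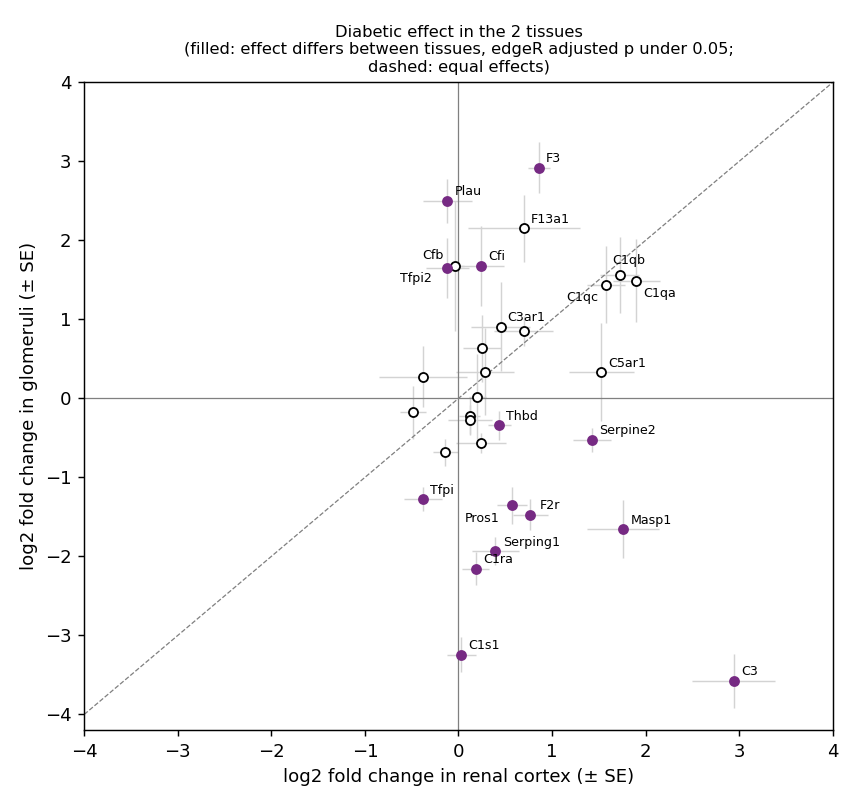
Log2 fold change in glomeruli against that in cortex for the 31 genes tested in both tissues, with standard errors; filled points are genes whose effect differed between the tissues, and F5 and Fga, which were not tested in glomeruli alone, are not drawn. C3 lies at −3.58 in glomeruli and 2.94 in cortex, the C1q chains lie near the dashed line of equal effects, and F3 is above it with positive values on both axes.

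Levels per transcript length, compared only within a tissue, ordered the genes differently in the 2 tissues. In control glomeruli F2r (325 ± 78.1 FPKM) and Plat (269 ± 54.5) overlapped in their spread and were followed by C1s1 (135 ± 30.3), Serpine2 (84.5 ± 10.8), Plau (55.1 ± 2.53), Pros1 (53.4 ± 16.7) and Serping1 (51.3 ± 9.03), the last 3 within their spread (SD, n = 3). In diabetic glomeruli Plau led at 357 ± 133 FPKM, with Plat at 254 ± 47.6, F3 at 189 ± 77.2 and F2r at 134 ± 2.32. In control cortex Plau (119.8 ± 54.2 FPKM) and Cfb (116 ± 10.1) overlapped, ahead of Serpina1a (23.3 ± 9.91), Serping1 (20.1 ± 7.96) and F2r (15.0 ± 4.33) (SD, n = 4). In diabetic cortex C3 reached 24.3 ± 11.9 FPKM from 3.05 ± 1.23.

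Further genes of both systems were counted from lists of 36 complement and 42 coagulation genes. In glomeruli 17 complement genes were tested, of which 6 rose and 3 fell, and 22 coagulation genes, of which 8 rose and 5 fell. Their median log2 fold changes were 0.50 and 0.26, beside 19.4% rising and 18.2% falling over all genes. Of those that rose, C5ar2, Bdkrb2, Proc, Habp2 and F13b passed the count filter through their diabetic samples. Kng2 was at 96.3, 4.59 and 42.3 CPM in the diabetic samples, and Kng2, F13b, Serpinf2, Habp2 and Proc were lowest in diabetic 2, which had the least tubule RNA. F2rl1, Bdkrb2 and Anxa5 were highest in diabetic 2, and the part of tubule RNA was not tested. In cortex 6 of 29 complement genes rose and 1 fell, and 6 of 34 coagulation genes rose and 5 fell, with medians of 0.27 and 0.08, beside 10.8% and 9.29% over all genes. Clu, clusterin, an inhibitor of the membrane pore, rose in glomeruli from 33.3, 106 and 33.9 CPM to 3018, 3391 and 2856 (log2 5.74 ± 0.56) and in cortex by 0.84 ± 0.13. F2rl1, the protease receptor PAR2 (4.15 ± 0.31), also rose in glomeruli. Susd4, a complement regulator, had 3 to 23 reads in control and 634 to 1020 in diabetic glomerular libraries, and Cpn1, a carboxypeptidase that inactivates C3 and C5 fragments, had 4 to 10 and 157 to 416. Both were called higher but passed the count filter through their diabetic samples, so their fitted folds are not given. F2rl1 went from 5.29, 8.49 and 4.21 CPM to 111, 124 and 81.6, the opposite direction to its relative F2r in the same samples. C1rl, a C1r-like protease (−2.14 ± 0.19), and Vkorc1, the vitamin K reductase that clotting factor synthesis needs (−1.28 ± 0.15), fell in glomeruli. In cortex S100a10, a plasminogen receptor subunit (1.33 ± 0.10), the complement receptor integrin chains Itgax (1.45 ± 0.21) and Itgb2 (1.45 ± 0.22) and Anxa5, an anticoagulant annexin (0.57 ± 0.09), rose, and Serpinc1, antithrombin, fell (−1.44 ± 0.20). Both integrin chains are leukocyte genes, and 12 of 14 macrophage and myeloid markers rose in the same libraries with a median log2 fold change of 1.53; their part in the integrin result was not tested.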

How the data were processed

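Gene counts and FPKM values for glomeruli and cortex were deposited by the authors in separate tables. The glomerular counts are whole read counts per gene symbol as deposited. The cortex values deposited by the authors are estimated counts made whole, per Ensembl identifier, as judged from their relation to the FPKM values (15 values above 0 have an FPKM of 0). The FPKM values were computed by the authors and were used here for levels per length and as an alternative unit. GRCm38 and mm10 are the builds listed, per the submitters' processing notes. For aligner, counting tool, annotation and use of strand the answer is: not given in the sources used here. The labels' protocols give total RNA and a SMARTER library kit. Cortex identifiers were given symbols from GENCODE M21 (GRCm38): 31953 of 34264 matched, and the 2311 others held 0.32% of counts. Glomerular symbols were used as given.

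Each tissue was fitted alone with edgeR 4.0.16 (R 4.3.3): filterByExpr, TMM scaling, robust quasi-likelihood fit, Benjamini-Hochberg adjustment over all genes tested, threshold 0.05. CPM are scaled by TMM library sizes, and SE is the absolute log2 fold change divided by the square root of F. The difference between tissues was the contrast of both diabetic effects in 1 model of 4 group means on the 18750 symbols that both tables held. Close glomerular pairs were summed; no block was used. Alternatives were DESeq2 1.42.0, library totals in place of TMM, no filter, limma 3.58.1 on log2(FPKM + 1) with a mean FPKM of at least 0.1, separate libraries, the replicate block and left-out libraries. Of the wider pathway lists, up to 6 genes a tissue are named: those of smallest adjusted p that passed the test, whose groups did not overlap and whose mean log2 CPM reached 1. Members and lists were chosen by gene role, with earlier results of these data known. Promoter windows are those of RefSeq (GRCm38.p6), from 250 bases before to 50 after the start.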

Additional observations from a re-analysis of the deposited data

Results flagged for a closer look

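A gap test on single libraries (the distance from the most extreme of 4 libraries to its neighbour as a share of the group's range, above Dixon's limit) was run on 84 groups of 4, of which chance would mark about 1 in 20. The 84 groups are those of the 42 genes in cortex, and 6 libraries were marked. Glomeruli, with 3 samples a group, were not checked. Cfd was at 42.4 CPM in control 3 and at 2.10 in diabetic 2, beside Adipoq as described above. Cfp was at 2.83 CPM in control 2, Masp1 at 3.66 in control 4, Fga at 38.8 in diabetic 4 and Plaur at 7.78 in diabetic 3. Control 4 is the library that stood apart from the other controls over all genes, and the Masp1 call held without it.

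Over all 16266 genes tested for a difference between the tissues, 18.8% had a higher diabetic effect in glomeruli and 16.3% a lower one. For 16 of the 41 members tested the diabetic effect differed between glomeruli and cortex, by edgeR's test of the difference. It was lower in glomeruli on the log2 scale for C3 (-6.51), Masp1 (-3.41), C1s1 (-3.27), C1ra (-2.34), Serping1 (-2.32), F2r (-2.24), Serpine2 (-1.95), Pros1 (-1.93), Tfpi (-0.89) and Thbd (-0.77). It was higher in glomeruli for Fga (5.22), F5 (3.01), Plau (2.62), F3 (2.06), Tfpi2 (1.78) and Cfi (1.48). Fga and F5 had few glomerular reads, were not tested in glomeruli alone and passed the count filter through cortex, so their values are no measure of size.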

How the results depend on the processing

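In glomeruli C3, C1s1, C1ra, Serping1, F3, Plau and Tfpi kept their direction and call in all 13 alternatives, and in cortex C1qa, C1qb, C1qc, C3, C4b, C5ar1, Masp1, F3, F5, Fga, Fgb, Fgg and Serpine2 did. Glomerular members rose or fell in counts of 7 and 11, which became 3 and 6 with diabetic 2 as the lone diabetic sample (assumed to vary like the controls), while calls over all genes fell from 2950 and 2767 to 1356 and 937; the difference between tissues then had 2 higher in place of 6, and the wider lists had 7 higher and 4 lower in place of 14 and 8. With diabetic 2 as the lone diabetic sample, calls over all genes for the difference between tissues fell too, both higher and lower. The smaller count of members in that test is thus not a result about the members alone. Leaving out 1 sample gave 3 to 12 glomerular members higher (3 without control 1 or control 3+4, 12 without diabetic 2). Over all genes 2147 were higher without control 1, 2076 without control 3+4 and 2587 without diabetic 2. The wider lists had 8 to 14 higher and 4 to 8 lower (8 without control 3+4, 9 without control 1 or diabetic 1+4, 4 lower without diabetic 1+4). Without diabetic 1+4, 2183 of all genes were higher and 1728 lower. Library totals moved the median log2 fold change of all glomerular genes from 0.01 to 0.20 and gave 4390 higher and 1661 lower genes in place of 2950 and 2767; members were then 9 higher and 8 lower. Library totals and FPKM each left 5 of the wider genes lower in glomeruli, and 1 member lower in cortex in place of 2, as did leaving out single cortex libraries (1 to 2). With totals and FPKM, 1661 and 1631 of all genes were lower in glomeruli. In cortex 1335 and 1218 were lower, in place of 1787. DESeq2 called 19 of the wider genes higher in cortex in place of 12, and 2619 of all genes in place of 2069.

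Replicate numbers were not shown to pair animals: same-numbered samples correlated at -0.33 to 0.06 in cortex and -0.10 to 0.14 in glomeruli. With the replicate block, cortex had 13 members higher and 1 lower (1389 and 986 over all genes, from 2069 and 1787), with C7, Thbd, Pros1 and F8 no longer called, and glomeruli, with all 8 libraries separate, had 8 higher and 11 lower (3596 and 3396 over all genes).

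Signs changed only for genes that had not passed. In glomeruli C2 was at -0.0055 with no filter, and with diabetic 2 alone C2 was at -1.22, Cfb at -0.42, C3ar1 at -0.039 and C5ar1 at -0.98. C5ar1 was at -0.058 with the replicate block, and F8 at 0.024 with totals, 0.0029 with FPKM, 0.049 with separate libraries and 0.046 with the block. With single samples left out, C2 ranged from -0.29 to 0.54, Cd55 from -0.37 to 0.016, C3ar1 from -0.034 to 1.25, C5ar1 from -0.70 to 0.73, F8 from -0.40 to 0.10 and Procr from -0.046 to 1.26. In cortex Cfb was at 0.0084 with totals and 9.7e-05 with FPKM, and Serpina1a at 0.050 with FPKM and 0.017 with the block. With single libraries left out, C1s1 ranged from -0.092 to 0.14, Cfb from -0.12 to 0.0059, Cd59a from -0.21 to 0.024, Plat from -0.034 to 0.37, Plau from -0.26 to 0.19, Serpina1a from -0.20 to 0.24, Tfpi2 from -0.32 to 0.027 and Vwf from -0.66 to 0.25. The cause of these changes was not tested. In glomeruli 11 members had too few reads to test at this depth.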
